A study of Arabidopsis thaliana with 12 samples.

Results

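The 5 genes described here encode nuclear-coded proteins of the photosynthetic machinery of Arabidopsis thaliana: PSAN (AT5G64040) of photosystem I, PSBY (AT1G67740), PSBW (AT2G30570) and PSB27 (AT1G03600) of photosystem II, and LHB1B2 (AT2G34420) of the light-harvesting antenna. They were taken as every array feature that the platform annotation assigns to a single gene, where that gene is 1 of these 5. Each had exactly 1 feature, so the account covers 5 of the 691 genes that lie on a feature of their own. Total RNA of 6 wild-type (WT) samples and 6 samples of the psbs mutant, both in ecotype Columbia 0, was hybridized to an array of 3439 features. The mutant lacks the protein PSII-S. The labels place that protein in photosystem I, whereas by general knowledge it belongs to photosystem II, where it lets leaves shed surplus excitation quickly as heat. The labels state no mutant allele, tissue, age or growth light, and nothing says that the replicates came from separate plants, so p-values speak of the spread among these samples alone, and that spread may be technical.

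Photosystem II uses light to take electrons from water, and photosystem I uses light to pass them on to ferredoxin. Both consist of a chloroplast-encoded core to which small subunits made in the cytosol are added, and photosystem II draws much of its excitation from trimers of light-harvesting chlorophyll a/b proteins. In green tissue the transcripts of these proteins are among the most abundant of the nucleus, and they respond to light and to the state of the chloroplast.

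Signal as a whole was distributed differently in the 2 groups, and this bears on every value below. Median deposited intensity ran from 0.304 to 0.379 in the WT samples and from 0.0233 to 0.0361 in the psbs samples, on a scale that ends at 100. Between 13.0% and 13.7% of features were listed at 0 in WT samples, against 27.0% to 34.9% in psbs samples. The 5 genes were above 0 in all 12 samples, and all lay in the brightest 10% of the tested features by mean rank over the 12 samples. That mean pools both groups. For PSB27 the mean percentile rank, with 100 for the brightest feature, was 88.3 in WT and 95.8 in psbs. PSBS, the gene of the missing protein, was named on 0 features, so its loss could not be used to check the labels. Since the labels record no batch of hybridization, one that fell together with genotype cannot be told apart from it. In RNA of whole samples, a smaller share of green cells and less transcript per cell cannot be told apart either.

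In psbs, PSAN, PSBY and LHB1B2 were higher, PSBW was lower, and PSB27 did not pass the test. The results for LHB1B2, PSBW and PSB27 changed with the processing, as given with each. Each difference is given as log2 of psbs minus WT after quantile scaling. Its SE and its limma p-value, adjusted over all 3359 tested features, are given with it. Quantile scaling brings samples to a common distribution of values, but exact 0 values were kept at 0. The groups therefore still differed after scaling in their share of features at 0. Of the 5 genes 4 were called, against 55.3% of all features: 3 were called higher, against 26.2% of all features, and 1 lower, against 29.1% of all features. The threshold was an adjusted p of 0.05. Features this bright were called more often: among the brightest 10%, 336 features, 47.0% were called higher and 40.5% lower, so a count of 4 called among 5 is close to what bright features show in general.

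PSAN encodes the N subunit of photosystem I, a lumenal protein on the side where plastocyanin delivers electrons. Its deposited intensity in WT was 3.34 at the lowest, 4.29 at the median and 5.25 at the highest. In psbs it was 16.3 at the lowest, 19.7 at the median and 36.5 at the highest. The groups did not overlap, and the lowest psbs sample was far above the highest WT sample. In psbs the values of replicates 1 and 2, 33.6 and 36.5, stood above the 16.3 to 21.1 of replicates 3 to 6. The ratio of mean intensities was 5.49, and the log2 difference was 2.24 ± 0.25 (SE, n = 6 per group; limma adjusted p = 7.38e-06). Without psbs replicates 1 and 2 the difference was 1.88, and it was still called (limma adjusted p = 1.50e-06).

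PSBY encodes a precursor that is cut into a pair of small membrane proteins found at the edge of photosystem II. It ran from 1.79 over a median of 2.03 to 2.73 in WT. In psbs it ran from 6.14 over 8.45 to 11.0. The groups did not overlap, and every psbs value was more than the whole WT range away from the nearest WT value. The ratio of mean intensities was 3.93, and the log2 difference was 1.99 ± 0.14 (SE, n = 6 per group; limma adjusted p = 1.28e-07). At each of the 6 replicate numbers the psbs sample was between 3.34 and 4.29 times the WT sample of the same number, which is a narrower range than the 3.30 to 8.24 of PSAN.

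PSBW encodes a small protein with a single membrane span that sits between the photosystem II core and its antenna and helps to hold their large complexes together. It was the steadiest of the 5 in WT, at 43.8, 45.5 and 47.5 for the lowest, median and highest sample. In psbs it was at 12.8, 15.7 and 16.7. The 2 groups were far apart, with no sample of either between 16.7 and 43.8. The coefficient of variation was 2.92% in WT, lower than in all but 0.853% of the 1407 features above 0 in every sample, and 9.36% in psbs. The ratio of mean intensities was 0.336, and PSBW fell by 1.90 ± 0.08 (SE, n = 6 per group) on the log2 scale (limma adjusted p = 1.85e-09). Its direction depended on the scaling, as described below.

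PSB27 encodes a lumenal protein that binds photosystem II during assembly and repair rather than staying in the finished complex. Its deposited intensity ran from 0.701 over 1.91 to 2.56 in WT and from 1.20 over 2.45 to 4.48 in psbs. The groups overlapped between 1.20 and 2.56, while 3 psbs samples lay above every WT sample and 2 WT samples lay below every psbs sample. The log2 difference was 1.18 ± 0.49 (SE, n = 6 per group), and limma left it short of the threshold, at an adjusted p of 0.0581. That outcome changed under several alternatives, which are given at the end. It was the most variable of the 5 in WT, with a coefficient of variation of 49.7% that exceeded that of 99.0% of the 1407 features. In psbs the coefficient was 47.0%, near the median of 44.6% of all those features.

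LHB1B2 encodes a chlorophyll a/b-binding antenna protein of the Lhcb1 type, which forms the main antenna trimers of photosystem II. It lies next to LHB1B1, another gene of this type, in the TAIR10.1 gene list. Intensity ran from 8.73 over 12.4 to 15.6 in WT and from 27.3 over 31.7 to 34.3 in psbs. The groups did not overlap. The ratio of mean intensities was 2.57, and the scaled log2 difference was 0.65 ± 0.13 (SE, n = 6 per group; limma adjusted p = 0.00089), against 1.39 on the values as deposited. The call was lost after cyclic loess, at -0.0088 (limma adjusted p = 0.966). In contrast to PSAN and PSBY, the psbs replicates 1 and 2 were here the lowest of their group, at 27.3 and 28.8. Lhcb1 genes are close copies of one another, and how far this feature also reads the others was not tested.

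**Figure D1:**
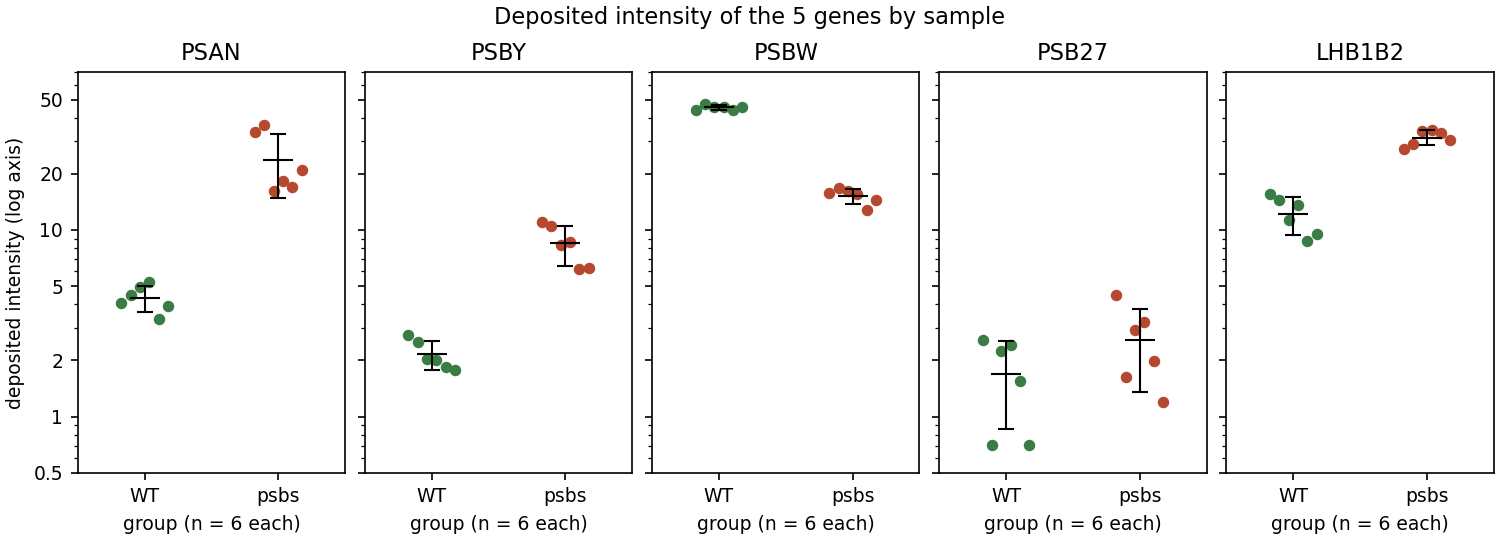
Deposited intensity of each gene in the 6 WT and 6 psbs samples, on a log axis. Each point is a sample, placed from left to right by replicate number, and bars give the mean and SD. The groups do not overlap for PSAN, PSBY, PSBW and LHB1B2, and overlap for PSB27, where 2 WT samples lie near 0.70.

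In deposited intensity the groups did not overlap for 4 of the 5 genes. PSAN, PSBY and LHB1B2 had every psbs sample above every WT sample, a pattern held by 5.84% of all 3359 features and by 33.3% of the brightest 10%. PSBW had every psbs sample below every WT sample, as did 67.3% of all features and 47.3% of the brightest 10%. The genes were chosen with such results known, so these shares are a description and not a test of the group.

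The rank of a feature within its sample does not change with any scaling that keeps the order of values, so ranks were compared without a choice of scaling. A rank reflects the probe as well as the transcript, and was therefore compared between groups only for the same gene. Counted from the brightest of the 3439 features, PSAN moved from ranks 76 to 107 in WT up to ranks 15 to 33 in psbs. PSBY moved from ranks 151 to 204 up to ranks 48 to 71. LHB1B2 was at ranks 23 to 36 in WT and 17 to 21 in psbs, so its groups were separated by only 2 places.

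PSBW moved the other way, from ranks 10 to 12 in WT down to ranks 35 to 40 in psbs. PSB27 had ranks of 154, 162, 168, 240, 703 and 934 in WT, where replicates 6 and 2 held the last places, and ranks of 92 to 198 in psbs. Among the 692 features of a single gene PSBW held rank 2 or 3 in every WT sample and ranks 6 to 8 in psbs. PSAN held ranks 16 to 22 in WT and 3 to 5 in psbs, and LHB1B2 held ranks 6 to 8 in WT and 3 or 4 in psbs. PSB27 held ranks 34 to 189 in WT and 14 to 33 in psbs, so on this narrower ranking its groups were apart by 1 place.

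Percentile ranks over the tested features were tested by exact permutation, two-sided, over all 924 ways to divide the 12 samples evenly, adjusted over the 3359 features. The rank rose by 2.01 percentage points for PSAN, 3.66 for PSBY and 0.318 for LHB1B2, and it fell by 0.794 for PSBW, with no overlap between groups of 6. Such a lack of overlap in rank, with psbs above, was found for 28.4% of all features, and with psbs below for 21.9%. Each of these had p = 0.00216, the smallest this design can give, and an exact permutation adjusted p of 0.0043. PSB27 was 7.47 points higher in psbs but its groups overlapped in this ranking (exact permutation p = 0.0433, adjusted p = 0.0658). Higher ranks were called for 34.4% of all features and lower ranks for 29.2%. The permutation treats all 12 samples as independent. However, samples with consecutive numbers deviated together in WT, with correlations over features of 0.459, 0.274 and 0.430. In psbs replicates 1 and 2 did so, with 0.385. Same-numbered samples of the 2 groups also correlated over features, at 0.0569 to 0.154, which this test leaves out as well.

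**Figure D2:**
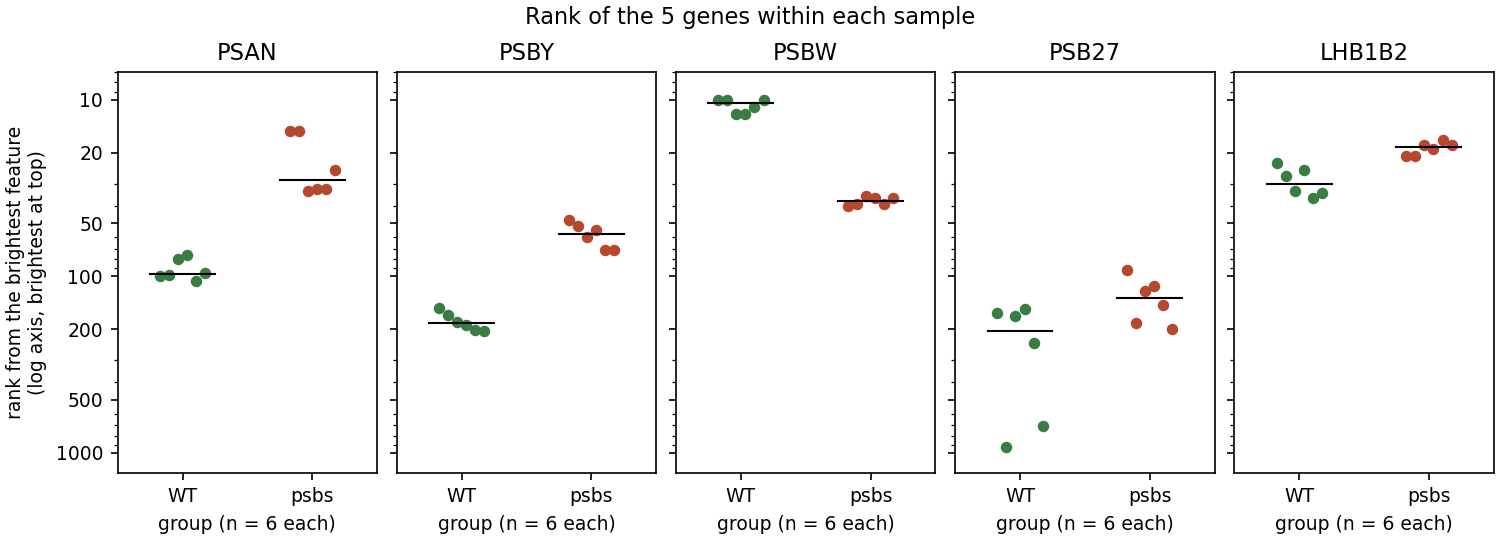
Rank of each gene within each sample, counted from the brightest feature and drawn on a log axis with the brightest at the top. Points are the 6 WT and 6 psbs samples and lines their median. PSAN, PSBY and LHB1B2 move up in psbs, PSBW moves down from ranks 10 to 12 to ranks 35 to 40, and PSB27 has 2 WT samples at ranks 703 and 934.

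The size of every difference, and for PSBW and LHB1B2 its sign, followed the scaling. With quantile scaling, the median log2 difference was 0.05 over all tested features, 0.36 over the brightest 10% and 1.18 over the 5 genes. On the values as deposited these medians were -2.86, -0.68 and 1.39. With each sample centred on its median they were 0.15, 2.76 and 4.83, and with cyclic loess they were -0.02, -0.40 and 0.27. The median of the 5 genes therefore lay above that of bright features under each scaling, although PSBW alone lay below it under all 4, which is a description of genes chosen with these values known. As deposited 3 of them were called higher and 1 lower, against 7.38% and 73% of all features, and 37.5% and 50% of the brightest 10%. With median centring 5 were called higher, against 26.5% higher and 19.9% lower over all features, and 75.6% and 3.57% of the brightest 10%. With loess 2 were called higher and 1 lower, against 22.8% and 26.8% of all features, and 30.4% and 46.1% of the brightest 10%.

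PSAN was called higher under the 4 scalings, with log2 differences of 2.24 on quantile-scaled values, 2.40 as deposited, 5.83 with median centring and 1.25 with loess. PSBY was also called higher under the 4, at 1.99, 1.96, 5.39 and 1.08. For these genes the sign did not hang on the choice, although the size ranged widely. LHB1B2 was called higher at 0.65, 1.39 and 4.83, but was at -0.0088 after loess (limma adjusted p = 0.966).

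PSBW was called lower after quantile scaling, at -1.90, as deposited, at -1.58, and after loess, at -3.09, and called higher, at 1.86, after median centring. As deposited 67.1% of all features had a still lower difference than PSBW, whereas after loess 2.62% did. PSB27 was at 1.18, 0.65, 4.09 and 0.27, and was called after median centring alone among the 4 scalings.

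**Figure D3:**
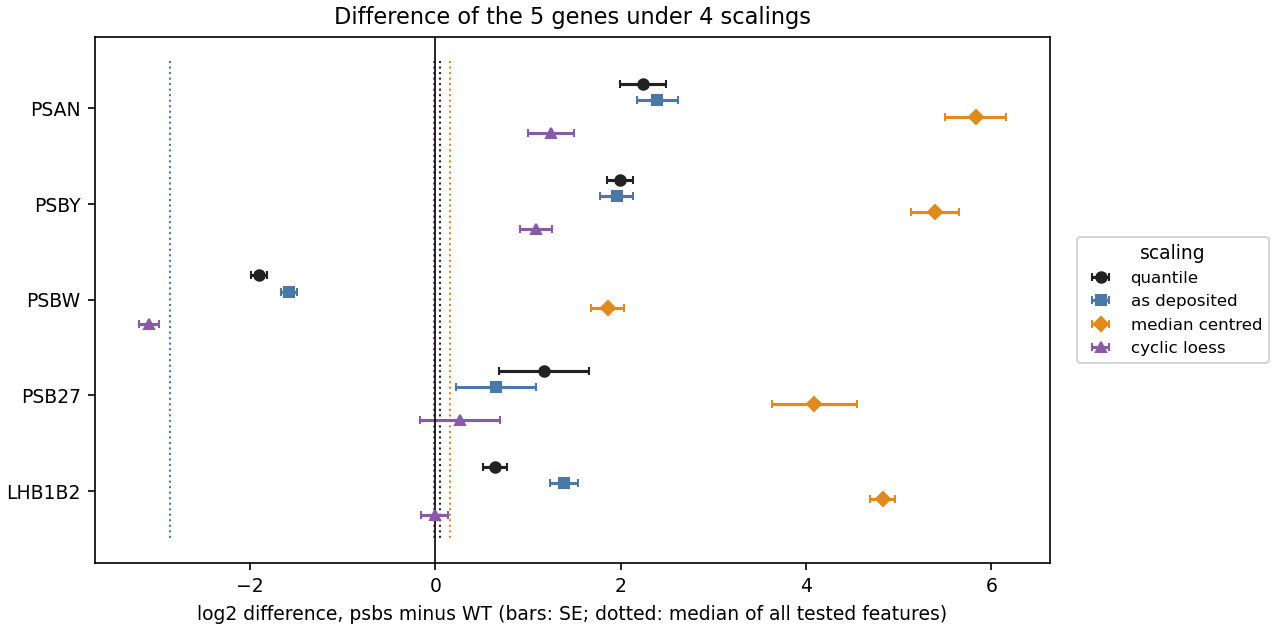
Log2 difference, psbs minus WT, of each gene under 4 scalings, with bars for the SE, over 6 samples per group. Dotted lines mark the median difference of all 3359 tested features under each scaling, -2.86 as deposited and near 0 otherwise. PSAN and PSBY lie to the right of 0 under the 4 scalings, PSBW lies to the left except after median centring, and LHB1B2 is at 0 after loess.

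Ratios between genes within a sample are free of any factor that multiplies all values of that sample. They are not free of a difference between groups that varies with brightness. As deposited, the median log2 difference was -2.86 over all tested features and -0.68 over the 336 brightest. The ratio itself mixes the brightness of both probes, so only its change between groups is read. Such a change shows that the signals of the pair changed unequally, without saying which one changed. Whether the transcripts changed unequally was not tested. The log2 ratio of PSAN to PSBW lay between -3.71 and -3.11 in WT and between 0.01 and 1.13 in psbs. The sign of this ratio depends on both probes and is not read, and in the lowest psbs sample both signals were nearly equal. The mean change was 3.97, or 15.7-fold, and the groups did not overlap. PSBY to PSBW changed by 3.53 on the log2 scale, or 11.6-fold, and the groups did not overlap either.

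PSBW also parted from the other genes. The log2 ratio of PSBW to LHB1B2 was between 1.50 and 2.33 in WT and between -1.36 and -0.78 in psbs, a change of -2.97. PSBW to PSB27 changed by -2.23, from between 4.10 and 6.08 to between 1.82 and 3.59. The groups of all 4 ratios with PSBW were thus apart, including that with the variable PSB27.

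Among the other 4 genes the ratios changed less. PSAN to LHB1B2 changed by 1.01 on the log2 scale and its groups did not overlap. PSAN to PSBY changed by 0.44 and PSBY to LHB1B2 by 0.57, and for both the groups overlapped. The remaining ratios all hold PSB27 and overlapped as well, with changes of 1.74 for PSAN to PSB27, 1.30 for PSBY to PSB27 and -0.74 for PSB27 to LHB1B2. In all, groups did not overlap for 5 of 10 ratios, close to the 49.4% of the 33411 ratios among all single-gene features above 0 in every sample. The median size of the log2 change was 1.52 for the 10 ratios and 1.87 for the 33411. The 10 ratios reuse 5 genes, and 4 of the 5 that were apart hold PSBW. The count therefore says little about the 5 genes as a set.

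**Figure D4:**
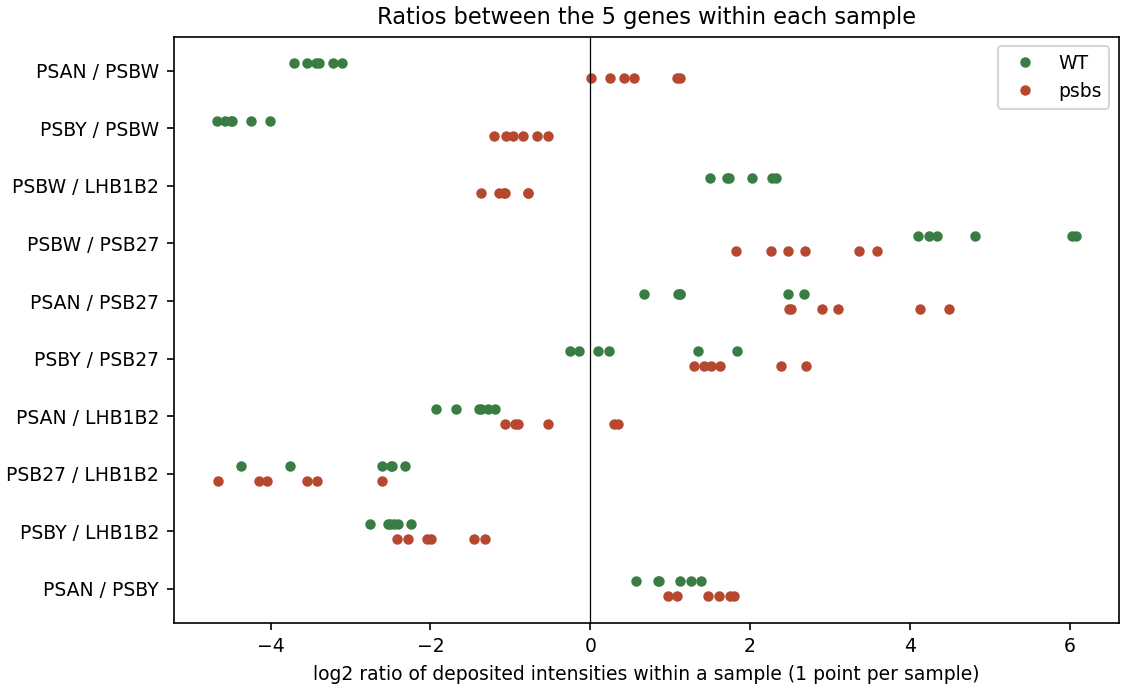
Log2 ratio of deposited intensities of each pair of genes within a sample, ordered by the size of the change between groups, with 1 point for each of the 6 WT and 6 psbs samples. The 4 ratios that hold PSBW are separated between the groups, by a mean of 3.97 for PSAN to PSBW, and so is PSAN to LHB1B2. The other 5 ratios overlap.

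PSB27 varied alike in both groups over the replicate numbers in the sample titles. In WT it was at 2.56, 0.703, 2.26, 2.41, 1.56 and 0.701 in replicates 1 to 6. In psbs it was at 4.48, 1.62, 2.90, 3.22, 1.99 and 1.20. Numbers 2 and 6 were lowest and number 1 was highest in both groups, and the psbs sample was higher than the WT sample of the same number at all 6 numbers, by 1.27 to 2.31 times. Across the 6 numbers the Pearson correlation of log2 intensity between WT and psbs was 0.930, as a description over 6 points. A higher correlation was found for 3.48% of the 1407 features above 0 in all samples, whose median was 0.0798, and psbs was higher at all 6 numbers for 15.4% of them.

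PSBY was also alike over the numbers, with a correlation of 0.947 between the groups, exceeded by 2.56% of features. In WT the highest values, 2.73 and 2.51, were at numbers 1 and 2 and the lowest, 1.84 and 1.79, at numbers 5 and 6. In psbs the same numbers held the highest values, 11.0 and 10.5, and the lowest, 6.14 and 6.27. On quantile-scaled values the correlation was 0.909 for PSB27 and 0.921 for PSBY. The other genes showed no such likeness on both scales: the correlation was -0.0278 as deposited and -0.482 scaled for PSAN, and -0.497 and -0.824 for LHB1B2. For PSBW it turned from 0.638 as deposited to -0.607 scaled. The labels do not say what a shared number means.

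**Figure D5:**
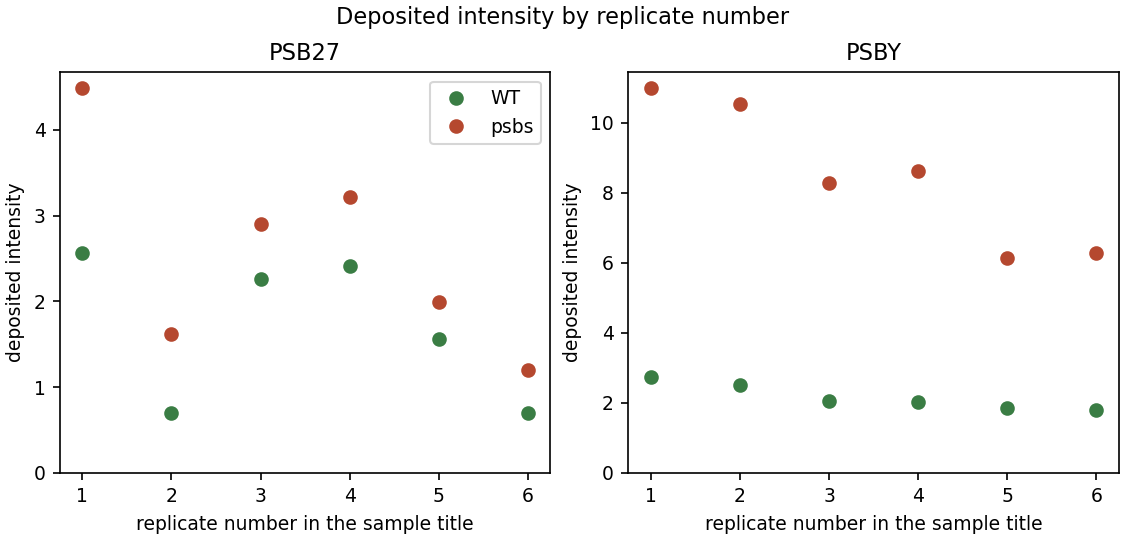
Deposited intensity of PSB27 and PSBY in each WT and psbs sample, against the replicate number in the sample title. PSB27 is lowest at numbers 2 and 6 in both groups, and at each number the psbs sample lies above the WT sample of that number for both genes.

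Few other genes of the light reactions could be read. Of 73 genes listed for photosystem I, photosystem II, light harvesting, electron transport, ATP synthase and photosystem assembly, 6 lay on a feature of their own, and 7 more only on features shared by several genes, which are not named here. Of the 6, 3 were called higher and 2 lower, against 26.2% and 29.1% of all features, and 1 was not called. The 5 genes above are among them, and the other is AT1G22700 of the assembly list. In WT, AT1G22700 ran from 0.313 over 0.537 to 0.778, while each of the 6 psbs samples listed it at 0. Its difference was -2.40 ± 0.15 (SE, n = 6 per group; limma adjusted p = 4.28e-08), a value that depends on the floor set for values at 0, and it was called lower under the 4 scalings, between -5.49 and -1.49. No list but photosystem II had over 1 measured gene, and there 1 was higher, 1 was lower and 1 was not called, too few to set against those shares.

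The single-gene features most like each of the 5 were found by the root mean square difference of their scaled log2 profiles over the 12 samples, each centred on its own mean, among 258 other single-gene features above 0 in every sample. PSAN was closest to THIC, which encodes an enzyme of thiamine synthesis, at 0.248, and to AT3G54210, at 0.274. PSBY was closest to AT3G15140, at 0.180, and again to AT3G54210, at 0.198. PSBY and PSAN were at 0.382 from each other, so that PSBY came 13th in likeness to PSAN. The matches were looser as deposited. From WT to psbs, mean deposited intensity went from 0.529 to 0.842 for THIC, 0.545 to 1.06 for AT3G54210 and 0.701 to 1.35 for AT3G15140. For PSAN it went from 4.33 to 23.8, and for PSBY from 2.15 to 8.47.

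PSBW was closest to NdhS, a subunit of the chloroplast NADH dehydrogenase-like complex, at 0.233. NdhS fell from 6.11 ± 0.788 to 1.91 ± 0.365 in deposited intensity (SD, n = 6 each), a scaled log2 difference of -1.68 (limma adjusted p = 4.79e-07). The next closest was CML30, a calmodulin-like protein, at 0.245. Its mean deposited intensity fell from 1.83 in WT to 0.134 in psbs, in proportion further than that of PSBW, from 45.4 to 15.2. LHB1B2 was closest to AT5G11010, at 0.155, and AT3G26630, at 0.194. In mean deposited intensity AT5G11010 went from 2.76 in WT to 3.36 in psbs and AT3G26630 from 10.6 to 25.4, against 12.2 to 31.3 for LHB1B2. PSB27 had no near match, its closest being AT1G27660, at 0.739, and CHLM, for an enzyme of chlorophyll synthesis, at 0.742. Both were alike to it only after scaling: in mean deposited intensity AT1G27660 was at 0.137 in WT and 0.0187 in psbs and CHLM at 0.399 and 0.169, whereas PSB27 was at 1.70 and 2.57. Profiles that differ between the groups by a like amount come out as alike here, so closeness mainly restates the group difference.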

How the data were processed

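Total RNA of 6 WT and 6 psbs samples was measured on 1 array platform. The deposited values are linear intensities from 0 to 100, 1 per feature and sample; how the authors scanned, corrected and scaled them, and what an exact 0 stands for, is not given in the sources used here. Sample titles gave the groups and replicate numbers. Genes were named from the platform annotation through TAIR10.1 loci: 690 of 692 single-gene features matched. No genome build is named, so no coordinates are printed.

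The 12 samples were quantile scaled with exact 0 values kept at 0, a floor was set at the 5th percentile of the positive scaled values (0.0559) before taking log2, which understates changes of dim features. limma 3.58.1 in R 4.3.3 (lmFit, eBayes) was run over the 3359 features above 0 in at least 1 sample, with Benjamini-Hochberg adjustment. Percentile ranks, with mean ranks for ties, were compared by exact permutation in Python 3.11.15. Figures used matplotlib 3.10.9. The limma step was run on simulated data with independent noise and 200 changed features. Those data held neither correlated samples nor the shift between the groups, so the run does not measure error rates here. Fits without some samples kept the scaling over all 12. The number of samples limits the precision.

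Named are the 5 genes, listed light-reaction genes on a single-gene feature, and the 2 nearest profiles of each gene. The members, lists and tests were chosen with earlier results of these data known. The ranking against the brightest 10% of features and the comparison by replicate number were added after the values were seen. Alternatives changed the scaling, floor, 0 values, filter on dim features, replicate block, handling of consecutive numbers and samples left out.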

Additional observations from a re-analysis of the deposited data

How the results depend on the processing

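PSAN and PSBY kept their direction and stayed called under all alternatives run on log2 values. The rank alternatives left out samples or narrowed the features ranked, and PSAN, PSBY, PSBW and LHB1B2 stayed called. Groups that do not overlap give the smallest possible permutation p whichever samples are left out, so this adds no support for these genes. PSBW was higher, at 1.86, when samples were centred on their medians, and LHB1B2 was at -0.0088 after cyclic loess; the cause was not tested. PSB27, not called at 1.18, was called at 4.09 after median centring, at 1.18 with exact 0 values missing (limma adjusted p = 0.0416) or without the dimmest 25% of features (0.0427), both with fewer features tested, and at 1.18 with the replicate number as a block (0.00879). Leaving out 1 sample at a time it ranged from 0.85 to 1.37 and was called without WT replicate 1, 3 or 4, at 1.35, 1.34 and 1.37. Its rank difference ranged from 4.25 to 8.90 percentage points and passed without psbs replicate 6, at 7.80; among single-gene features it passed at 8.53, with WT at ranks 34 to 189 and psbs at 14 to 33. Without psbs replicates 1 and 2 no call of the 5 genes changed. With consecutive numbers averaged, which leaves 3 values per group, no limma call of the 5 genes changed either (adjusted p = 0.0286 for LHB1B2 and 0.0705 for PSB27). Ranks were not compared in that way. Over all features 881 were called higher and 978 lower, against 248 and 2453 as deposited.

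The replicate block moved the counts little, to 872 higher and 961 lower, and changed no other call of the 5 genes. Deviations of same-numbered WT and psbs samples correlated between 0.0569 and 0.154 over features, and each sample correlated best with its own number in the other group. This is a hint from the data and not from the design, since the labels do not say what a shared number means. The correlations were low, with 1 of the 6 under 0.1. Values at 0 were met in no sample of the 5 genes, and their log2 differences were the same with the floor at the 10th percentile. Their SE and adjusted p did move with the floor, for PSB27 from a limma adjusted p of 0.0581 to 0.0614. The difference of AT1G22700 itself moved, from -2.40 to -1.76.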
